A study of Rattus norvegicus with 9 samples.

Results

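Rab GTPases are small membrane switches that mark the compartments of vesicle traffic, and 39 of their genes were measured in 3 culture media of rat pXEN cells (stem cells of the primitive extraembryonic endoderm). The members were all genes named Rab with a number and at most one letter a to d that had at least 10 counts in 3 or more libraries. Of 55 such symbols among the 17315 genes in the tables, 39 met this minimum and 38 of the 39 were tested. The last gene inside it was Rab36, with 10, 23 and 11 counts in 3 libraries and 0 in the other 6. Rab25 lay just outside, with 19 and 21 counts in 2 libraries and 9 in another.

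All 9 libraries came from one line, RX1, of the rat strain WKY, and 3 came from each medium. T is the traditional medium, on plates coated with fibronectin at 100 ng/ml, with 2% fetal bovine serum, the glucocorticoid dexamethasone at 0.5 µM and Lif, Pdgf and Egf at 10 ng/ml each. LPE has no serum or dexamethasone, a different basal medium with N2 and B27 supplements, collagen I at 10 µg/ml as the coating, and the same 3 factors at 10 ng/ml each. CPE is LPE with 1 µM Chir99021, a Gsk3 inhibitor, in place of Lif. Pdgf and Egf were thus shared by all groups, and serum, dexamethasone, basal medium and coating differed together between T and the others. Whether the libraries of a medium are separate cultures is not in the labels. The p-values therefore cover only the variation among these 9, possibly technical, and 1 line may not stand for others.

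A Rab protein carries lipid groups on its end, is delivered to one membrane, is switched on there when an exchange factor loads GTP, recruits effectors such as tethers and motors, and is switched off by a GTPase-activating protein. The yolk sac endoderm is known for this traffic in both directions, since visceral endoderm takes up maternal proteins through endosomes and lysosomes and parietal endoderm secretes a thick basement membrane. Rab5 proteins serve early endosomes, Rab4 and Rab11 recycling, Rab7 late endosomes and lysosomes, Rab1 and Rab6 the endoplasmic reticulum (ER) and Golgi, and Rab8, Rab10 and Rab27 exocytosis.

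Each T library held 1698764 to 2161228 reads on genes, with 3119049 to 3233526 in LPE and 3127352 to 4418465 in CPE. Levels are given in CPM, counts scaled to a common library size. Pairs of T libraries correlated at 0.970 to 0.981 on the log2 scale across genes, which are not independent, and pairs within LPE or CPE at 0.867 to 0.943. LPE replicate 2 had the fewest genes detected (8607) and 3 members at 0 counts (Rab4a, Rab13 and Rab30). Of 14 primitive endoderm markers 12 were in the tables, and all 12 (Gata4, Gata6 and Sox17 among them) had counts in every library, with sums of 12024 to 13504 CPM in T, 26666 to 30497 in LPE and 15156 to 17221 in CPE. Marker lists of other cell types, summed, gave 1.39 to 32.4 CPM in T, 0 in LPE and 0 to 6.44 in CPE for 7 fibroblast genes, with Col1a2, Dcn and Lum at 0 in all 9 libraries. Col1a1 and Col3a1 had counts in the 3 T libraries alone (means of 11.5 and 4.14 CPM). Thy1 averaged 0.750 CPM in T and 2.53 in CPE. The sums were 0.579 to 1.09, 0 and 14.3 to 35.1 CPM for the 5 trophoblast genes in the tables, and 232 to 286, 233 to 327 and 99.2 to 163 CPM for 5 epiblast genes, with Nanog and Sox2 at 0 throughout. Pou5f1 held nearly all of the epiblast sum, with mean CPM of 253 (T), 264 (LPE) and 132 (CPE). Pou5f1 had counts in every library, and was called lower than T for CPE but not for LPE. The 7 neural genes summed to 404 to 423, 300.002 to 321 and 45.7 to 78.4 CPM, with Snap25 and Syp at 0 throughout. Stmn2 held most of this sum in T and LPE (means of 394, 245 and 18.9 CPM in T, LPE and CPE). It was called lower than T in both serum-free media. Tubb3 (19.5, 64.3 and 4.70 CPM) was called higher in LPE and lower in CPE, and Dcx (2.31, 3.66 and 34.3 CPM) higher in CPE. The part of these differences in the Rab results was not tested.

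The promoters of the members that moved together are shown first, because 4 recycling and endosome genes (Rab11b, Rab15, Rab21 and Rab9a) were higher in CPE than in both other media and 3 genes (Rab1a, Rab10 and Rab14) were higher in both serum-free media than in T. The sequences are the 250 bases before the annotated start, 5′ to 3′ on the gene's strand, from RefSeq on build GRCr8, whereas the counts rest on rn6. Capitals mark matches, on either strand, to the E-box CACGTG, the TCACGTGA core of the CLEAR element of lysosomal genes, which contains an E-box, the TCF/Lef motif CTTTGAT, the cAMP response element TGACGTCA, the GC box GGGCGG, the CCAAT box CCAAT and the Golgi stress element ACGTGGC.
Rab11b (chr7:15236755-15237004, minus strand): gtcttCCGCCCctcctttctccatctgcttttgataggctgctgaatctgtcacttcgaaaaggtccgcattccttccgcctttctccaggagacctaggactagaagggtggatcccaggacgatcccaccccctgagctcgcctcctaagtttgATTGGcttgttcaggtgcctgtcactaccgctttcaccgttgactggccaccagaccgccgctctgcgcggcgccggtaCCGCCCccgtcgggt
Rab15 (chr6:101257084-101257333, minus strand): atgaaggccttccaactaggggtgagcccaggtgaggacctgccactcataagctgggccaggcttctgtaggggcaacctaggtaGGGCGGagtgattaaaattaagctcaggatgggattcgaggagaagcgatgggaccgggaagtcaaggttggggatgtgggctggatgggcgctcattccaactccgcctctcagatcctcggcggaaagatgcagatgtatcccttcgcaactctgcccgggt
Rab21 (chr7:52814944-52815193, minus strand): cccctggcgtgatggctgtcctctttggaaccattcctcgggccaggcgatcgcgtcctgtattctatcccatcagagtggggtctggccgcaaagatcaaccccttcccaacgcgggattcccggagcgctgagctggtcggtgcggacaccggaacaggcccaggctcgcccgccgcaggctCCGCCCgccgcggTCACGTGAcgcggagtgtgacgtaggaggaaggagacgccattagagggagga
Rab9a (chrX:31609839-31610088, plus strand): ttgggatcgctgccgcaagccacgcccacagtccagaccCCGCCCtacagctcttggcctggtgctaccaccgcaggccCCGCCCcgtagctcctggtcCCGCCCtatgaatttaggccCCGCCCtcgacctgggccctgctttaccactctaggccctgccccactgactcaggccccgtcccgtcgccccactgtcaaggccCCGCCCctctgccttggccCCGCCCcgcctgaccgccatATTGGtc
Rab1a (chr14:98623427-98623676, plus strand): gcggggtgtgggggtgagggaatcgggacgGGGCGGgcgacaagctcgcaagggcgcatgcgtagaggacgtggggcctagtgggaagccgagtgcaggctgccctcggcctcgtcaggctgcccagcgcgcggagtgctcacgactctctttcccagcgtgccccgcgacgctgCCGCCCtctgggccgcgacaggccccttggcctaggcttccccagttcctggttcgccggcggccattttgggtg
Rab10 (chr6:32039555-32039804, minus strand): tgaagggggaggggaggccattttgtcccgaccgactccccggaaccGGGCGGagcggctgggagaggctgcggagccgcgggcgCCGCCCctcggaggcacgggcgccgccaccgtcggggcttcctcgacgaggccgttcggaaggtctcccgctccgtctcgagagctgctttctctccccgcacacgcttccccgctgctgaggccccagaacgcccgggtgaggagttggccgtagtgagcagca
Rab14 (chr3:38911685-38911934, minus strand): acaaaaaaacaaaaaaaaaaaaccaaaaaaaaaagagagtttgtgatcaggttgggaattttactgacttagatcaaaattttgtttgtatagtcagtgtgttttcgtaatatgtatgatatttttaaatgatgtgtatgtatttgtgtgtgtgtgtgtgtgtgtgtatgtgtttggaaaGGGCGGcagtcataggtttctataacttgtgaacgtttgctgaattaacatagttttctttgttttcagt

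Of the 39 members 32 matched a RefSeq promoter, giving 33 windows, since Rab30 has 2. A GC box stood in 28 of the 33 (84.8%), against 30.5% of all 33469 promoters of the same length and 61.8% of the 7400 promoters of genes tested here. The median GC content was 65.2% in the members, 60.8% in tested genes and 51.2% in all promoters. Rab9a had 6 GC boxes in its window, and Rab14, at 30.4% GC, had the lowest GC content of the members and 1 GC box. The Rab14 window also held the fewest CpG (C followed by G), 3 against a member median of 18. Whether its annotated start is the one used in these cells was not tested. An E-box was found in 3 windows (Rab21, Rab31 and Rab5a, 9.09%, against 8.45% of tested genes), and Rab21 alone among these held the CLEAR core (1.54% of tested genes), 53 bases before its start. The CCAAT box was in 12 windows (36.4%, against 36% of tested genes), and the Golgi stress element in those of Rab20 and Rab5a (6.06%, against 3.43%). The TCF/Lef motif and the cAMP response element were in none of the 33 windows, against 2.01% and 3.26% of tested genes. These letters are a description of the windows and not evidence of binding.

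LPE was compared with T, which asks what differs between the serum medium and its serum-free counterpart with the same factors. Rab1a, Rab10 and Rab14 were higher in LPE, and Rab7a, Rab20 and Rab31 were lower. That is 6 of the 38 members tested (15.8%, 3 higher and 3 lower) by the quasi-likelihood test of edgeR at an adjusted p under 0.05, against 29.7% of the 9130 genes tested (15% higher and 14.7% lower). The median log2 fold change was -0.165 over the members and -0.0265 over all genes tested. The 3 LPE libraries did not overlap the 3 T libraries for 17 members, against 47.3% of all genes.

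CPE against T asks the same with Chir99021 in place of Lif, and shares the T libraries. Rab1a, Rab10 and Rab14 were higher here too, with Rab5b, Rab9a, Rab11b, Rab15 and Rab21, while Rab5c and Rab34 were lower. That is 10 of 38 (26.3%), against 32.1% of all genes (16.8% higher and 15.3% lower), with medians of 0.06 and -0.0139 on the log2 scale. Libraries did not overlap for 20 members, against 54.4% of all genes.

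CPE against LPE compares Chir99021 with Lif in otherwise the same medium. Rab7a, Rab9a, Rab11a, Rab11b, Rab15, Rab21 and Rab35 were higher in CPE. These were 7 of 38 (18.4%), against 17.8% of all genes, of which 9.56% were higher and 8.23% lower. No member was called lower by edgeR, with 2 (Rab23 and Rab27a) lower at an unadjusted p under 0.05, and DESeq2 called 1 lower (Rab23) and limma 0. The medians were 0.27 over the members and 0.01 over all genes, and libraries did not overlap for 11 members, against 31.3% of all genes. In all, 15 members were called in at least 1 comparison and 23 in none.

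**Figure D1:**
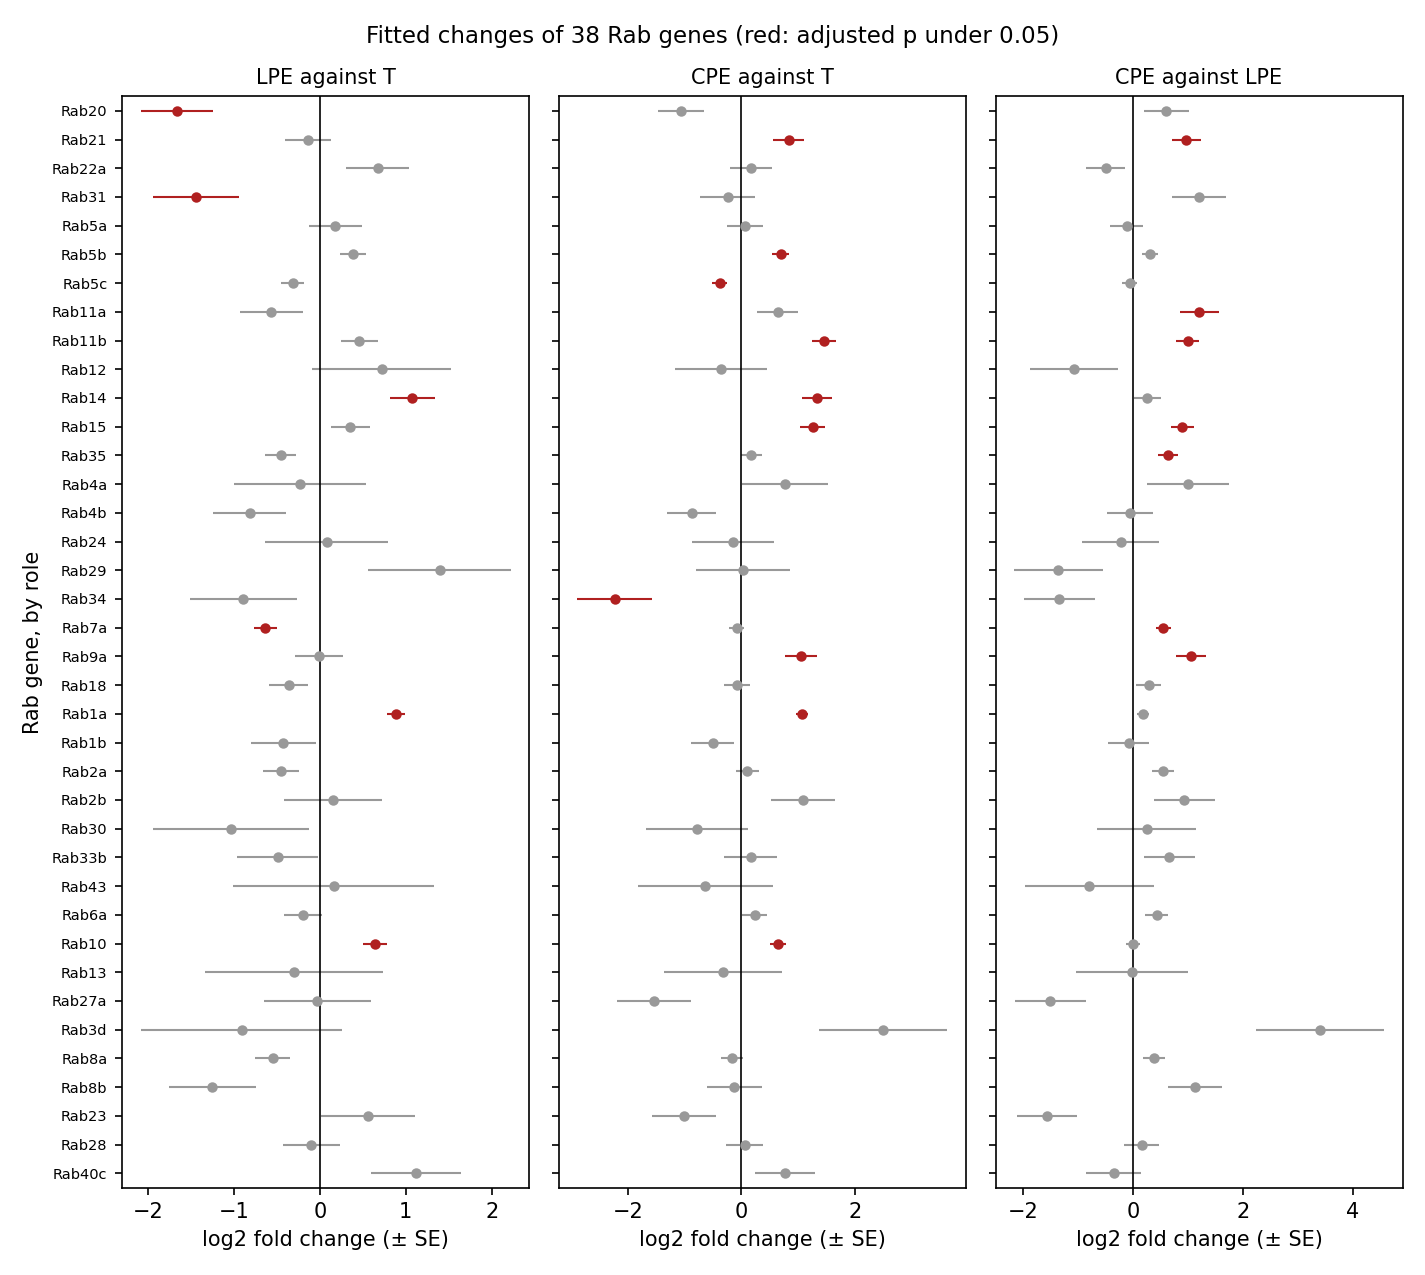
Fitted log2 fold change of each of the 38 tested Rab genes, ordered by role, with bars of 1 SE, in LPE against T, CPE against T and CPE against LPE; red points have an adjusted p under 0.05. Red points lie on both sides of 0 in the first 2 panels, and the 7 red points of CPE against LPE lie on the right.

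Early endosomes sort what a cell has taken up. Rab5a, whose protein drives fusion of endocytic vesicles, had 32.7, 39.4 and 39.1 CPM in T, 58.5, 32.0 and 35.6 in LPE and 51.3, 30.4 and 34.5 in CPE, and the 3 ranges overlapped with no call. Its isoform Rab5b rose in CPE. It stood at 184, 169.7 and 174 CPM in T, 223, 274 and 194 in LPE and 268, 329 and 256 in CPE, so that every CPE library lay above every T library (1.62-fold, log2 0.69, SE 0.15, edgeR adjusted p = 0.00228). LPE also lay above T, where edgeR made no call (1.31-fold, adjusted p = 0.0663) and DESeq2 (0.0471), the fit of these 2 media alone (0.0457) and leaving out LPE replicate 3 (0.0292) did. CPE over LPE was called without LPE replicate 2 alone among the alternatives (0.0422). Rab5c, the other isoform, went the opposite way, with 285, 370.0 and 305 CPM in T, 259, 268 and 243 in LPE and 253, 219.6 and 263 in CPE. The fall from T to CPE was 1.30-fold (SE 0.13 on the log2 scale, adjusted p = 0.0346). That call was lost with the replicate number as a block (adjusted p = 0.0556) and without T replicate 2 (0.203), T replicate 3 (0.0724), CPE replicate 1 (0.0508) or CPE replicate 2 (0.124).

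Rab20, a Rab of phagosomes and endosomes, fell in LPE. Its levels were 32.7, 43.4 and 32.1 CPM in T, 14.1, 6.84 and 13.1 in LPE and 15.6, 12.5 and 23.8 in CPE. All serum-free libraries lay below all T libraries, with a 3.17-fold fall in LPE (log2 -1.66, SE 0.42, adjusted p = 0.00707, but 0.0516 without T replicate 2), and CPE, 2.09-fold lower, missed the threshold (adjusted p = 0.0598). DESeq2 (0.0495), limma (0.0101) and the fit of T and CPE alone (0.0182) called this fall, as did leaving out LPE replicate 2 (0.0233) or CPE replicate 3 (0.0407). Rab21, which carries integrins inward, overlapped in T and LPE and was higher in CPE, at 39.3, 57.9 and 45.6 CPM in T, 39.3, 53.5 and 36.9 in LPE and 110.3, 61.3 and 82.8 in CPE. It was 1.78-fold higher in CPE than in T (SE 0.27, adjusted p = 0.0268) and 1.96-fold higher than in LPE (SE 0.27, adjusted p = 0.0183). Without T replicate 1 or 3 or CPE replicate 1 or 3 the first call was lost (adjusted p = 0.127, 0.0941, 0.134 and 0.0577), and without LPE replicate 1 or 3 or CPE replicate 1, or with limma, so was the second (0.0533, 0.0593, 0.0913 and 0.06).

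Rab31, which acts between the Golgi and endosomes, gave 68.2, 71.2 and 59.1 CPM in T and 11.2, 27.7 and 34.0 in LPE, a 2.72-fold fall (SE 0.50, adjusted p = 0.0401). The CPE libraries spread from 14.2 to 87.9 CPM, with CPE replicate 1 alone near the LPE values, and CPE over LPE (adjusted p = 0.11) was called without CPE replicate 1 (0.00748) and with no filter on low counts (0.0433). Its call in LPE was lost in 6 of 16 alternatives, namely without any one T library (adjusted p = 0.0907, 0.109 and 0.0646 for replicates 1, 2 and 3), LPE replicate 1 (0.137), LPE replicate 2 (0.0569) or CPE replicate 2 (0.0594). Rab22a, an endosomal relative of Rab31, was not called, and LPE replicate 2 at 84.9 CPM was the highest library against 26.0 to 44.8 in the other 8. Summed over the 7 early endosome members, levels were 672 to 791 CPM in T, 593 to 746 in LPE and 749 to 781 in CPE. T overlapped both other media, and every CPE library was narrowly above every LPE library.

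Recycling Rabs return receptors to the surface, and edgeR called 3 of 8 higher in CPE than in T (16.8% of all genes) and 4 of 8 higher than in LPE (9.56% of all genes). Of these 4 calls against LPE, those of Rab11a and Rab35 were each lost in 5 of 16 alternatives. Roles were assigned with earlier results of these data known, so the shares by role support no difference from all genes. Rab11b, a Rab of the slow recycling endosome, stood at 59.5, 59.6 and 46.5 CPM in T, 70.6, 93.9 and 62.5 in LPE and 176, 152 and 123 in CPE. Its CPE libraries lay above all the others, 2.73-fold higher than T (log2 1.45, SE 0.21, adjusted p = 9.69e-05) and 1.99-fold higher than LPE (log2 0.99, SE 0.21, adjusted p = 0.0033). Rab11a, its close relative, had 65.5, 68.9 and 71.1 CPM in T, 15.02, 72.1 and 51.6 in LPE and 99.7, 112 and 108 in CPE. The 3 CPE libraries were again above the other 6, and the call against LPE (2.30-fold, SE 0.36, adjusted p = 0.0287) passed the threshold while the value against T did not (1.55-fold, adjusted p = 0.196). Against T, limma (0.0132), the fit of T and CPE alone (0.00384) and leaving out LPE replicate 1 (0.0173) made the call, and LPE was called below T without LPE replicate 2 (0.0403). LPE replicate 1 was far below the other LPE libraries, and the call against LPE was lost without LPE replicate 3 (adjusted p = 0.0544), without any one CPE library (0.0591, 0.0858 and 0.0745 for replicates 1, 2 and 3) and in a fit of the 6 libraries of these media alone (0.0655).

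Rab15, which slows recycling from early endosomes, had 58.9, 43.4 and 53.5 CPM in T, 58.2, 53.8 and 87.8 in LPE and 126, 119 and 128 in CPE. CPE was above both other media without overlap, by 2.39-fold against T (log2 1.25, SE 0.22, adjusted p = 0.000473) and 1.86-fold against LPE (log2 0.90, SE 0.22, adjusted p = 0.00832). Rab14, which works between endosomes, the Golgi and the surface, instead separated T from the rest, at 40.9, 42.3 and 35.8 CPM in T, 119.9, 58.4 and 72.1 in LPE and 116, 92.0 and 91.8 in CPE. It was 2.11-fold higher in LPE (log2 1.07, SE 0.26, adjusted p = 0.0055) and 2.52-fold higher in CPE (log2 1.33, SE 0.26, adjusted p = 0.00106) than in T, and CPE and LPE overlapped.

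Rab35, a Rab of fast recycling and cell division, had 116, 130.3 and 118 CPM in T, 96.5, 70.2 and 98.1 in LPE and 112, 144 and 154 in CPE, with LPE lowest. The call of CPE over LPE (1.55-fold, SE 0.18, adjusted p = 0.0247) was lost without LPE replicate 2 (0.0678), CPE replicate 2 (0.0791) or CPE replicate 3 (0.095), in the fit of these 2 media alone (0.0764) and with limma (0.0638). Rab4a, of fast recycling, was at 23.5, 34.7 and 24.2 CPM in T, 40.0, 0 and 30.1 in LPE and 64.9, 42.2 and 32.5 in CPE. LPE replicate 2 was empty for Rab4a while the other LPE libraries held 125 and 94 counts, and no comparison called it. Rab4b (10.3 to 40.0 CPM over the 9 libraries) was not called by edgeR, and limma called it lower in CPE than in T. Rab12 (3.41 to 16.2 CPM) was called in no setting. The summed recycling level was 393 to 419.8 CPM in T, 375 to 436 in LPE and 663 to 710.1 in CPE, whose mean was 1.70 times that of T and 1.67 times that of LPE. No test was run on sums over members.

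**Figure D2:**
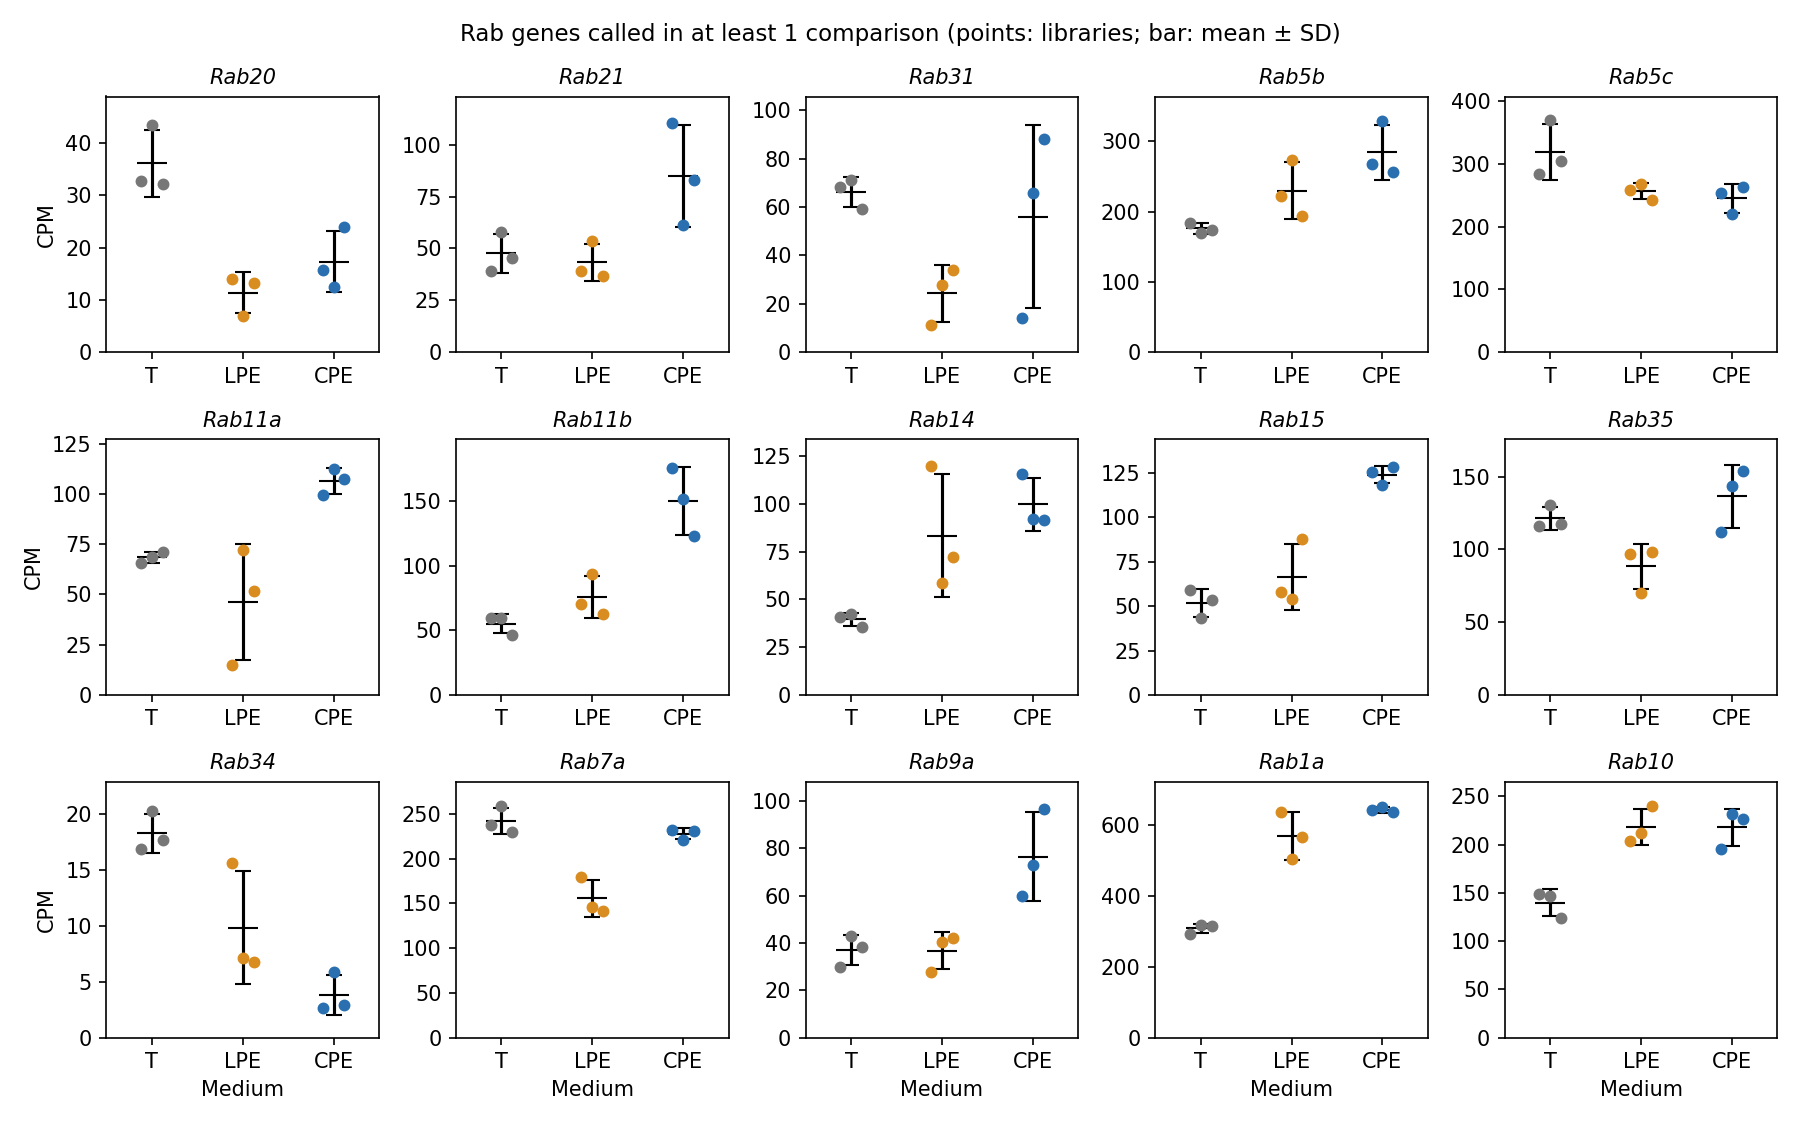
CPM of the 15 Rab genes called in at least 1 comparison, in each library of T, LPE and CPE (points, 3 per medium) with the mean and SD (bar). Rab11b and Rab15 sit higher in all 3 CPE libraries than in the other 6, whereas Rab1a, Rab10 and Rab14 sit higher in all LPE and CPE libraries than in T.

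Late endosomes hand their load to lysosomes or send receptors back to the Golgi. Rab7a, the Rab of fusion with lysosomes, had 238, 258 and 229 CPM in T, 179, 146 and 142 in LPE and 232, 221 and 231 in CPE. LPE alone was low, with no overlap, 1.55-fold below T (log2 -0.64, SE 0.13, adjusted p = 0.00202) and 1.46-fold below CPE (SE 0.13, adjusted p = 0.00846). Rab9a, which returns mannose 6-phosphate receptors to the Golgi, had 30.0, 42.9 and 38.1 CPM in T, 27.8, 40.4 and 42.0 in LPE and 59.9, 73.1 and 96.6 in CPE. Here CPE alone was high, 2.07-fold above T (log2 1.05, SE 0.27, adjusted p = 0.00805) and 2.08-fold above LPE (log2 1.06, SE 0.27, adjusted p = 0.012). Without CPE replicate 3 both calls of Rab9a were lost (adjusted p = 0.0501 and 0.0695), and without T replicate 1 the first was (0.0544).

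Rab34, a Rab of lysosome position and of cilium formation, fell in CPE. It gave 16.9, 20.3 and 17.7 CPM in T, 15.7, 7.15 and 6.73 in LPE and 2.65, 5.91 and 2.90 in CPE. The media did not overlap, and CPE was 4.70-fold below T (log2 -2.23, SE 0.66, adjusted p = 0.0162, but 0.0542, 0.0711 and 0.0626 without T replicate 1, 2 or 3). Rab29, a Rab linked to the Golgi and lysosome, was at 2.73 to 5.79 CPM in T, 6.39 to 13.4 in LPE and 2.58 to 6.49 in CPE, without a call. Rab24, of autophagy, was not called either, and reads on its opposite strand were as many as on its own (250 and 245 counts over all libraries), which limits how far its level can be read. Rab36 had 0 counts in T and in 3 other libraries and was not tested. Summed, the 6 members had 297 to 337 CPM in T, 208 to 237 in LPE and 311 to 344 in CPE.

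In the early secretory pathway edgeR called 1 of 9 members in LPE against T (29.7% of all genes), 1 in CPE against T (32.1%) and 0 in CPE against LPE (17.8%), where 1 had an unadjusted p under 0.05 and DESeq2 and limma also called 0. Rab1a, which drives transport from ER to Golgi, had 292, 317 and 313 CPM in T, 636, 502 and 565 in LPE and 640.2, 649 and 634 in CPE. Every serum-free library was above every T library, by 1.85-fold in LPE (log2 0.89, SE 0.11, adjusted p = 2.01e-05) and 2.09-fold in CPE (log2 1.06, SE 0.11, adjusted p = 2.69e-06). LPE and CPE were not told apart by the test (1.13-fold, SE 0.10, adjusted p = 0.285). Of all reads on members, Rab1a took 10.4% to 11.5% in T, 19.4% to 20.6% in LPE and 17.6% to 18.1% in CPE. RefSeq on GRCr8 lists 6 pseudogenes named for Rab1a, and multi-mapped reads enter no gene, so its level is uncertain. Such reads were 64.9% to 67.6% in T and 51.7% to 59.9% in the serum-free libraries. Their part in the Rab1a difference was not tested.

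Rab1b, whose protein has the same task, was not called in any comparison, at 67.1, 76.4 and 68.8 CPM in T, 79.6, 23.9 and 54.8 in LPE and 26.5, 66.8 and 56.0 in CPE. Its log2 fold change was -0.42 (SE 0.38) in LPE and -0.50 (SE 0.38) in CPE, and whether it differs from that of Rab1a was not tested. Rab6a, of traffic within the Golgi, had 199, 222 and 194 CPM in T, 228, 106 and 204 in LPE and 287, 211 and 226 in CPE, with LPE replicate 2 lowest and no call. Rab2a, of the Golgi, was highest in CPE replicate 1 (227 CPM) and lowest in LPE replicate 2 (92.0 CPM), and was called in CPE over LPE only with the replicate block, with no filter or without LPE replicate 1, and below T in LPE without LPE replicate 1. Rab33b, of the Golgi and autophagy, had 7.77 CPM in LPE replicate 2 and 50.4 to 81.8 CPM in the other 8 libraries. Rab2b was not called by edgeR in the fit of all libraries, and limma and the fit of T and CPE alone called it higher in CPE. Rab18, Rab30 and Rab43 were called in no setting. The summed level of the 9, Rab1a included, was 888 to 1000.1 CPM in T, 813 to 1298 in LPE and 1253 to 1353 in CPE.

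Exocytic Rabs carry vesicles to the surface. Rab10, of basolateral and regulated delivery, stood at 149, 147 and 124 CPM in T, 204, 212 and 239 in LPE and 196, 231 and 227 in CPE. Both serum-free media were above T without overlap, each by 1.56-fold (log2 0.64, SE 0.14, adjusted p = 0.00263 in LPE and 0.0024 in CPE), and they did not differ from each other beyond their spread. Rab8a, of delivery from the Golgi to the surface and cilium, had 202, 210.2 and 199.9 CPM in T, 163, 87.3 and 169 in LPE and 194, 191 and 160.4 in CPE. LPE lay below T at an adjusted p of 0.0518, just above the threshold, and 7 of 16 alternatives called it, DESeq2 (0.0455) and limma (0.011) among them. Rab8b, its relative, was also lower in LPE without a call (18.0 to 24.3 CPM in T and 3.73 to 14.1 in LPE, adjusted p = 0.0763), and was called without LPE replicate 3.

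Rab27a, which docks secretory granules and exosome-bearing endosomes, had 20.2, 30.1 and 17.2 CPM in T, 16.3, 39.8 and 9.94 in LPE and 6.78, 14.1 and 1.93 in CPE. CPE lay below T without overlap, but the fold of 2.90 was not called (SE 0.65, adjusted p = 0.0841). It was called with the replicate block (0.017) and without CPE replicate 2 (0.0311). Rab3d, of granule exocytosis, was at 2.73, 0.579 and 3.25 CPM in T, 1.60, 1.86 and 0 in LPE and 22.7, 4.32 and 10.95 in CPE. Only its CPE libraries had at least 10 counts, so Rab3d met the minimum for members through the group where it is high, and its separation supports nothing. The adjusted p was 0.108 against T and 0.0559 against LPE (SE 1.13 and 1.17), and DESeq2 called both. Rab13, a junction Rab, was not called (0 to 11.9 CPM). Outside these routes, Rab23 (a brake on Hedgehog signalling), Rab28 and Rab40c were not called by edgeR. Rab23 in CPE (5.45 to 9.73 CPM) lay below LPE (10.3 to 29.2 CPM) at an adjusted p of 0.0625, and DESeq2 and the fits without LPE replicate 2 or CPE replicate 1 called it.

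**Figure D3:**
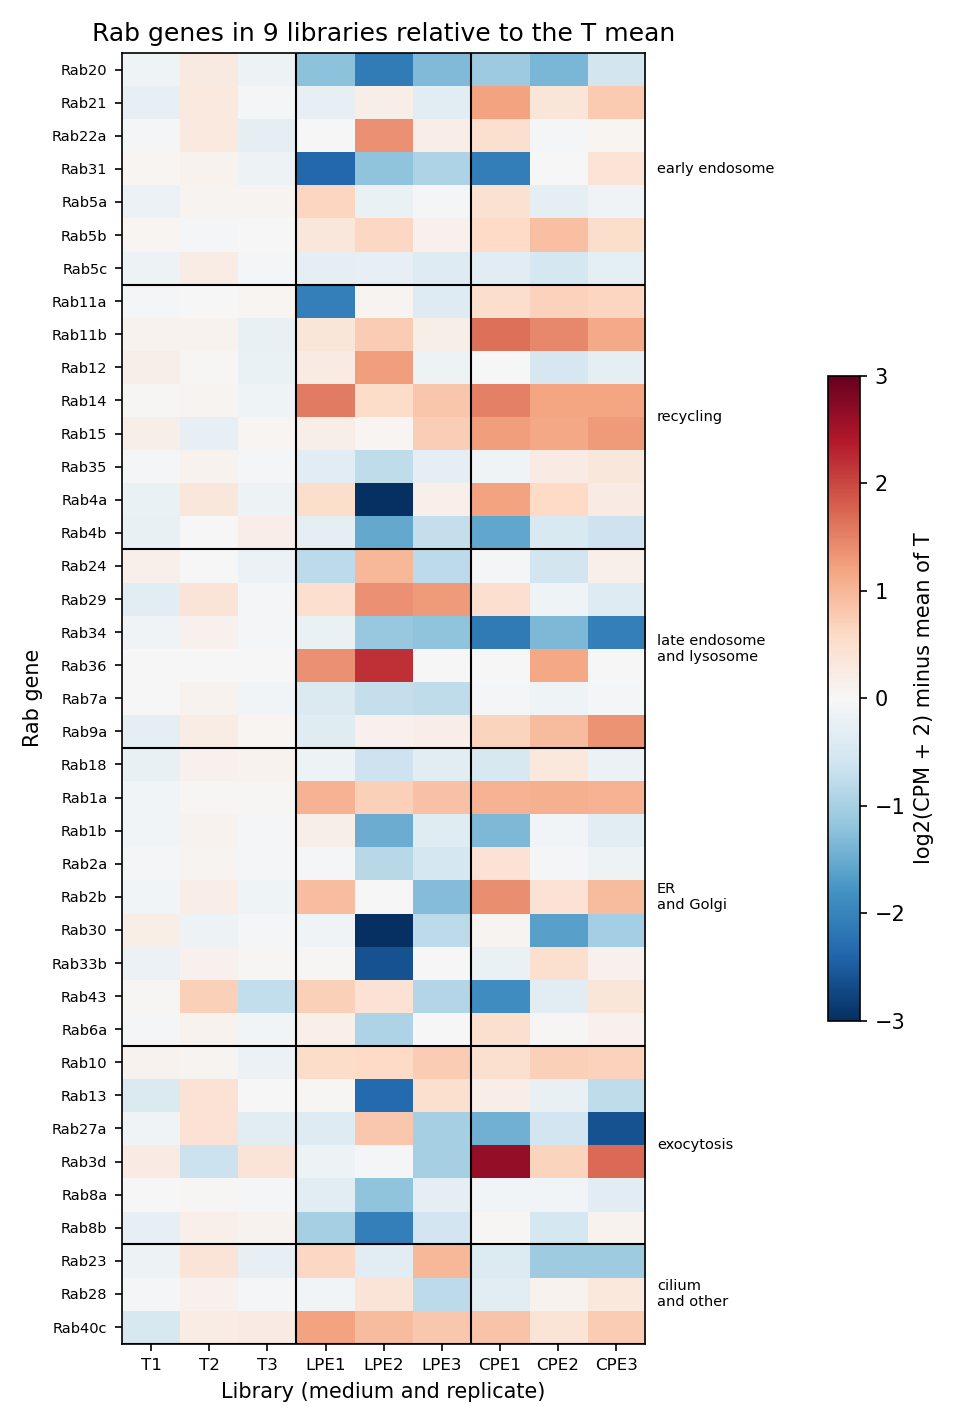
log2(CPM + 2) of the 39 Rab genes, by role, in each of the 9 libraries, minus the gene's mean in T (red higher, blue lower, colours ending at 3). Rows change within LPE and CPE as well as between media, and LPE replicate 2 has the darkest blue cells, at Rab4a and Rab30.

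The members as a whole took 0.258% to 0.369% of the reads on genes. Their sum was 2710 to 3041 CPM in T, 2589 to 3088 in LPE and 3536 to 3636 in CPE, so every CPE library was above the other 6. Lengths of transcripts were not used, so these sums weigh long transcripts more, and levels of different Rab genes were not compared. In bulk RNA, fewer cells with a transcript and less of it per cell cannot be told apart.

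**Figure D4:**
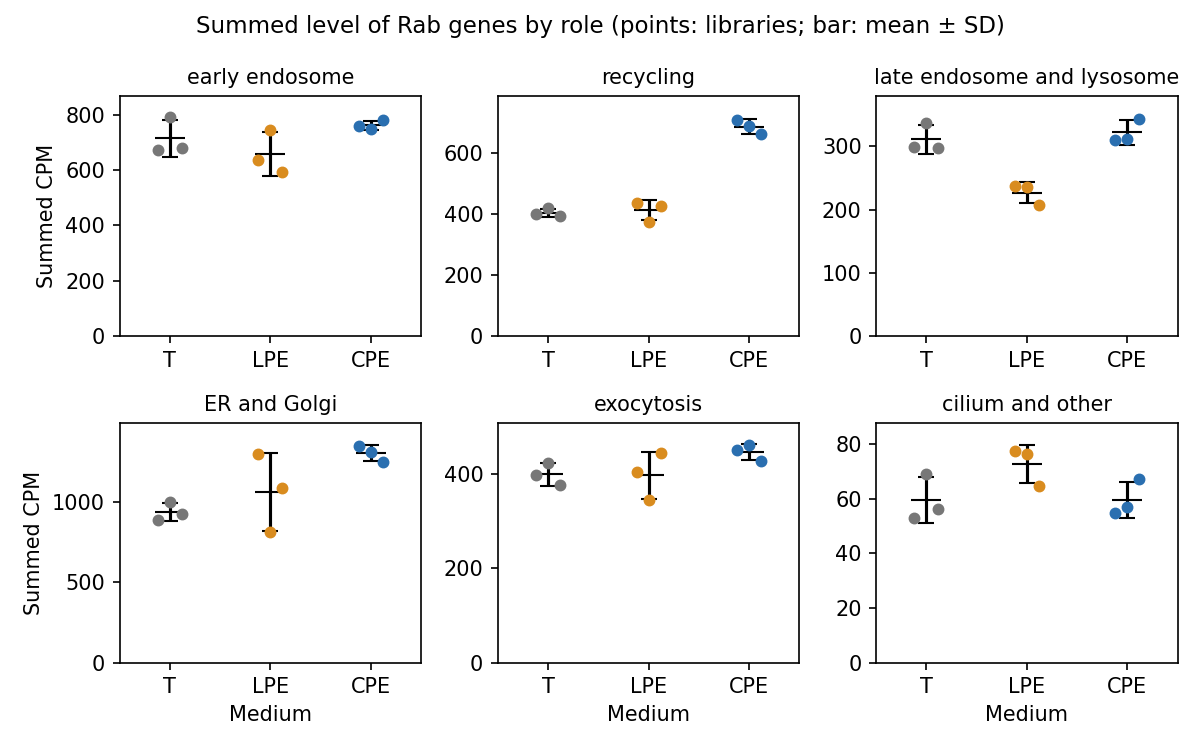
Summed CPM of the Rab genes of each role in each library of T, LPE and CPE (points, 3 per medium) with the mean and SD (bar). The 3 CPE libraries sit above the other 6 for recycling (663 to 710.1 CPM), and the 3 LPE libraries sit below the other 6 for late endosome and lysosome (208 to 237 CPM). Rab7a holds most of the late endosome and lysosome sum.

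The genes that load, unload and read Rabs were described from a list of 143, of which 90 were tested. This list too was chosen with earlier results of these data known. In LPE against T 11 rose and 13 fell (26.7% called, background 29.7%), in CPE against T 10 rose and 8 fell (20%, background 32.1%), and in CPE against LPE 9 rose and 5 fell (15.6%, background 17.8%). Among prenylation and GDI genes 1 rose and 3 fell of 8 in LPE and 1 rose and 2 fell in CPE, compared with T. These shares are read against the same 29.7% and 32.1%. Icmt, which methylates the prenylated end, fell 2.78-fold in LPE (adjusted p = 0.000614) and 3.16-fold in CPE (adjusted p = 2e-04) from 97.9 ± 2.07 CPM in T (SD, n = 3, edgeR throughout). Rabac1, a receptor of prenylated Rabs, fell 3.15-fold in LPE (adjusted p = 0.033), a call that leaving out T replicate 2, T replicate 3 or LPE replicate 3 removed (0.184, 0.0805 and 0.0837), as did limma (0.0652) and the fit of these 2 media alone (0.0522).

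Of 21 exchange factors, 2 rose and 3 fell in LPE (background 29.7%) and 3 rose and 2 fell in CPE (background 32.1%) against T. Rab3il1, an exchange factor of Rab8 and Rab3, fell from 114 ± 8.17 CPM in T to 19.6 ± 4.86 in LPE and 13.7 ± 14.2 in CPE, where 1 library was at 0 (adjusted p = 0.00886 and 0.00272), and DESeq2 did not call the first (0.104). Its log2 fold change in CPE was -3.06, -2.49 without CPE replicate 1 and -4.08 without CPE replicate 3. Rabgef1, an exchange factor of Rab5, was 3.92-fold higher in CPE than in LPE, at 52.8 ± 3.52 against 13.4 ± 7.55 CPM (adjusted p = 0.00198). Madd, an exchange factor of Rab3, had 37.8 ± 15.1 CPM in LPE and 17.3 ± 2.38 in CPE (2.17-fold, adjusted p = 0.0445), a call that 12 of 16 alternatives lost (adjusted p = 0.0532 to 0.122), among them leaving out any one T or CPE library or LPE replicate 2 or 3.

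Of 21 genes listed as GTPase-activating proteins 2 rose and 4 fell in LPE (background 29.7%) and 2 rose and 1 fell in CPE (background 32.1%) against T. Whether the product of each listed gene acts on a Rab was not tested. Tbc1d24 was 4.36-fold higher in CPE than in T and 6.14-fold higher than in LPE, at 64.1 ± 24.8 CPM (adjusted p = 0.000457 and 0.000171). Tbc1d9 had 34.5 ± 4.16 CPM in CPE, 4.82 ± 1.41 in T and 0.852 ± 1.48 in LPE, where 2 libraries were at 0 (adjusted p = 0.0113 against T and 0.00076 against LPE), and the call against T was lost without T replicate 3 (0.0555) or CPE replicate 3 (0.053). Sgsm2 rose to 19.3 ± 14.1 CPM in LPE from 4.20 ± 0.156 in T, a call lost with the replicate block (0.0604) and without any one T library (0.101, 0.108 and 0.103 for replicates 1, 2 and 3) or LPE replicate 2 (0.163).

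Among 41 effectors 6 rose and 3 fell in LPE (background 29.7%) and 4 rose and 3 fell in CPE (background 32.1%) against T. Unc13d, a Rab27 effector that primes granules, went from 17.9 ± 0.668 CPM in T to 132 ± 16.9 in LPE and 75.6 ± 3.02 in CPE (adjusted p = 1.63e-07 and 2.65e-06 against T and 0.00617 between the serum-free media). Its 3 ranges were separate, which the choice of named regulators required. Rims2, an effector of Rab3, rose 4.67-fold in LPE to 18.0 ± 6.86 CPM (adjusted p = 0.0139, but 0.0743 and 0.0509 without T replicate 1 or 2). Vps11, a core subunit of the tethers that Rab5 and Rab7 recruit, fell 1.96-fold in CPE to 60.9 ± 18.7 CPM from 119 ± 1.51 in T (adjusted p = 0.00368). EdgeR called Vps11 lower in LPE than in T too (1.83-fold, 65.2 ± 4.21 CPM, adjusted p = 0.00836). CPE and LPE were not told apart for Vps11 by edgeR (adjusted p = 0.806). Fyco1, a Rab7 effector of transport along microtubules, had 65.7 ± 15.5 CPM in LPE and 34.6 ± 9.20 in CPE (1.90-fold, adjusted p = 0.024), a call lost without LPE replicate 1 (0.0939), CPE replicate 2 (0.101) or CPE replicate 3 (0.0686) and in the fit of these 2 media alone (0.0693).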

How the data were processed

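RNA was sequenced in 9 libraries of rat pXEN cells, 3 each in T, LPE and CPE, grouped by their titles. Total RNA was depleted of ribosomal RNA and made into libraries with a directional kit, which keeps strand, per the labels' protocols. The submitters' processing notes list Trimmomatic 0.33, STAR 2.5.1, CASAVA 1.8.2 and DESeq2, and build rn6. Which annotation was counted is not given in these sources. The deposited tables from the authors hold raw counts of reads per gene, and the column for the strand that carries nearly all gene reads was used (the other strand had 0.822% to 0.986%). Reads mapping to several places (51.7% to 67.6%) enter no gene, so Rabs with near-identical copies or pseudogenes are uncertain.

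The quasi-likelihood test of edgeR 4.0.16 (R 4.3.3) was fitted to the 9 libraries together, with TMM factors and the 9130 genes that pass filterByExpr, and p-values were adjusted by Benjamini-Hochberg over all of them. The SE is the fitted log2 fold change divided by the root of F. CPM use TMM factors, and 1 count is worth 0.227 to 0.579 CPM. Members, roles, motifs and gene lists were chosen with earlier results of these data known. By the naming rule, library values are given for members called with a change of at least 1 on the log2 scale and 5 CPM, and for a reference Rab of each role. The remaining called members and a few uncalled ones are given likewise, chosen after their values were seen. Regulators named are up to 3 rises and 3 falls per comparison. In simulated counts with 200 changed genes the test found 37%, 52% and 43% of 2-fold and 77%, 81% and 76% of 4-fold changes for LPE against T (9021 genes), CPE against T (9053) and CPE against LPE (9032). The changed genes were drawn from those with a mean of at least 5 CPM. They were a far smaller share than the 17.8% to 32.1% of genes called in the data, and the adjustment is stricter where few genes change. These rates thus do not give the power of the real comparisons, nor that for members below 5 CPM. Alternatives were DESeq2 1.42.0, upper-quartile factors, no filter, reads on either strand, the 2 media alone, a replicate block, limma 3.58.1 (voom, a weight per medium) and leaving out each library.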

Additional observations from a re-analysis of the deposited data

Results flagged for a closer look

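Reads on the strand opposite to Rab24 made up 50.5% of the reads on both strands (250 of 495 counts over the 9 libraries), with more than 3 in every library (78 in T, 94 in LPE and 78 in CPE in all). This column of the tables enters no comparison above. The next members by this share were Rab40c (8.85%), Rab34 (8.37%) and Rab20 (8.36%).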

How the results depend on the processing

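Over 20 members and the regulators named, 1248 alternatives of single values were run, of which 1137 kept their direction and side of the threshold, 67 lost a call, 24 gained one and 20 changed sign, the last all for values not called. The gains were of Rab5b, Rab8a, Rab11a, Rab20, Rab27a and Rab31, and outside this tally Rab2a, Rab2b, Rab3d, Rab4b, Rab8b and Rab23 gained a call in at least 1 alternative. Calls held under all 16 alternatives for Rab1a, Rab10, Rab14 and Rab7a in LPE against T, for Rab1a, Rab5b, Rab10, Rab11b, Rab14 and Rab15 in CPE against T, and for Rab7a, Rab11b and Rab15 in CPE against LPE. Leaving out 1 library gave 4 to 9 members called in LPE against T, 7 to 11 in CPE against T and 4 to 9 in CPE against LPE (4 without CPE replicate 3, against 7). For regulators it gave 14 to 24 in LPE against T (14 without T replicate 2 or 3, against 24), 14 to 23 in CPE against T and 11 to 17 in CPE against LPE. For regulators in CPE against LPE, limma called 9 and the fit of the 2 media alone 9, against 14. The cause of these moves was not tested.

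Changes of sign in log2 fold change came mostly from leaving out 1 library. In LPE against T the range over left-out libraries was -0.15 to 0.16 for Rab9a (0.0066 with DESeq2 and 0.0201 with the 2 media alone), -0.31 to 0.024 for Rab21, -0.76 to 0.31 for Rab27a, -0.13 to 0.36 for Rab5a, -0.85 to 0.37 for Rab4a and -0.39 to 0.0895 for Rab6a, the last 2 turning positive without LPE replicate 2. In CPE against T it was -0.20 to 0.21 for Rab5a and -0.72 to 0.21 for Rab31, positive without CPE replicate 1. In CPE against LPE it was -0.37 to 0.20 for Rab5a, -0.0481 to 0.0724 for Rab10 and -0.12 to 0.00904 for Rab5c.

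Deviations of same-numbered libraries correlated at -0.0266 to 0.0118 over 9 pairs, and those of differently numbered ones at -0.0472 to 0.0352 over 18. No shared deviation was thus seen by replicate number. The labels do not say what the numbers mark, so whether the libraries were paired cannot be told. With the replicate block, 6, 10 and 8 members and 19, 17 and 15 regulators were called in LPE against T, CPE against T and CPE against LPE. The number of genes called LPE against T was then 2558, of genes called CPE against T 2751 and of genes called CPE against LPE 1500. Depth limits the members with few counts, such as Rab3d, Rab29 and Rab43, since 1 count is worth up to 0.579 CPM.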

Other observations

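Rab25, an epithelial relative of Rab11, missed the count minimum of the members and was singled out after its values were seen. It had 19, 9 and 21 counts in the CPE libraries (5.60, 2.04 and 6.76 CPM), 0, 2 and 0 in T and 0 in every LPE library. The CPE mean of 4.80 CPM was 5.05-fold the level that 3 counts per library would give in LPE (0.951 CPM). This ratio leaves out the counting error of the CPE libraries, so it is not a lower bound, and no test was run.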
